A study of Mus musculus with 12 samples.

Results

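The members described here are 38 interferon-stimulated genes, taken by name as a list of sensors, antiviral effectors, regulatory factors, GTPases and antigen-processing genes. The list was drawn up with earlier results of these data known. Of the 38, 36 had a probe set that the platform annotation ties to 1 gene symbol (53 probe sets of the 45101 on the array), and 35 passed the filter on low signal among the 11815 genes tested. Mx2 did not pass it, Isg15 shares its probe set with another symbol and is given no value, and Ifi44 was not analysed here. Messenger RNA was measured on 12 single-colour Affymetrix mouse arrays. There were 4 groups of 3 arrays: knockout treated, knockout untreated, control treated and control untreated. The knockout mice lacked Stat5a and Stat5b in blood cells and the control mice carried both genes. The labels used here name no strain, allele, Cre driver or age. They also do not settle whether the letters GMP name the agent or the cells, so only the word treatment is used. The series title places the work in GM-CSF-driven granulocyte formation. Each of 3 array dates holds 1 array from every group. Separate animals are not named in the labels. The p-values therefore describe how these arrays vary, which may in part be technical.

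Interferons bind cell-surface receptors that activate JAK kinases and STAT transcription factors. In the type I interferon pathway a complex that holds STAT2 and IRF9 binds the interferon-stimulated response element (ISRE) in the promoters of its target genes. Interferon gamma acts mainly through GAS elements, a motif that STAT5 dimers can also bind. The induced proteins sense viral RNA and DNA, block viral replication, restrict vacuolar pathogens and prepare peptides for antigen presentation. Myeloid cells transcribe many of these genes after microbial or cytokine signals.

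The promoters below are those of the members that rose with treatment and hold the ISRE core (GAAA, any 2 bases and GAAA again, searched on both strands) within the 200 bases before the start. They are RefSeq sequences of build GRCm38.p6, written 5′ to 3′ on the gene's own strand and ending at the base before the annotated start. The ISRE core is in capitals, and in all of them it reads from the strand opposite to the gene. Rsad2 lies at chr12:26456453-26456652 on the minus strand, Gbp2 at chr3:142620463-142620662 on the plus strand and Ifit3 at chr19:34583329-34583528 on the plus strand. The start used for Ifit3 lies within the annotated span of that gene. Parp14 also rose, but it had no promoter entry and was not searched.
Rsad2: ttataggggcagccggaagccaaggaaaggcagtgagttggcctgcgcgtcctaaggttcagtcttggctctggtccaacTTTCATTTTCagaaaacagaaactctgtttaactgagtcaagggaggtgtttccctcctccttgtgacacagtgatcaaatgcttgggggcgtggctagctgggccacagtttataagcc
Gbp2: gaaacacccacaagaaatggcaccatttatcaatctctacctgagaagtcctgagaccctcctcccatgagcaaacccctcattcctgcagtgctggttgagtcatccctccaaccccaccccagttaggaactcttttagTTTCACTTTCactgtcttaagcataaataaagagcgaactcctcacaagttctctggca
Ifit3: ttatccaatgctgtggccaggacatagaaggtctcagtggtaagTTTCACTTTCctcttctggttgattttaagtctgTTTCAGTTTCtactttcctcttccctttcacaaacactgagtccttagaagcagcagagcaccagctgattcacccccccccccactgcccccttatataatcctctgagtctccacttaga
In the 250 bases before the start, 11 of 28 tested members with a promoter entry held the ISRE core (39.3%), against 3.46% of the 27025 genes in the promoter table. The 11 were Rsad2, Ifit1, Ifit3, Oas1a, Oas3, Bst2, Trim30a, Gbp2, Gbp3, Igtp and Irgm1. Tested members without a promoter entry were Parp14, Usp18, Mx1, Oas2, Dhx58, Zbp1 and Iigp1. The GAS motif TTCNNNGAA stood in 7 of the 28 (25.0%), namely Ifit2, Isg20, Oas1a, Bst2, Irf1, Igtp and Psmb8, against 8.13% of all genes. In Bst2 an ISRE core, 130 to 121 bases before the start, overlapped the GAS motif at 136 to 128 bases. A match describes letters in these windows and not binding.

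The check of the targeted genes and of array quality bears on every value below. Stat5a signals were 26.7 to 101 on the 6 knockout arrays and 375 to 1147 on the 6 control arrays. Stat5b signals were 1.80 to 60.5 on the knockout arrays and 287 to 1531 on the control arrays. On date 2 the ratio of 3′ to 5′ probe sets was 20.8 to 266 for Actb, with the highest value on the control treated array, and 28.2 to 80.7 for Gapdh. On the other dates these ratios were 1.14 to 2.04 and 1.56 to 3.90. Xist signals were 64.3 to 172 on date 1, 5061 to 34540 on date 2 and 7088 to 9188 on date 3. The Y-linked Eif2s3y had 2169 to 2324 on date 1, 2.97 to 1802 on date 2 and 777 to 1833 on date 3. Among the date 2 arrays, the number tag in the knockout treated title differs from that of the other 3. The part of RNA quality and of the source animals in the results was not tested. The values are MAS5 signals, a linear brightness scaled to a common trimmed mean near 500 on each array. Changes are on the scale of log2(signal + 13), which understates those of dim genes.

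Treatment of knockout cells was followed by higher RNA of Rsad2, Gbp2, Ifit3 and Parp14 and lower RNA of Psmb9. Rsad2, which encodes the antiviral enzyme viperin, rose by 5.10 ± 0.78 on the log2 scale (SE, n = 3 arrays a group; limma, Benjamini-Hochberg adjusted p = 0.00404). Gbp2, a guanylate-binding GTPase gene, rose by 3.33 ± 0.57 (adjusted p = 0.00709). Ifit3, whose protein joins the complex that holds back foreign RNA, rose by 3.10 ± 0.79 (adjusted p = 0.0344), and Parp14, a gene for an ADP-ribosylating enzyme, by 2.21 ± 0.51 (adjusted p = 0.0235). Psmb9, a catalytic subunit of the immunoproteasome, fell by 1.13 ± 0.26 (adjusted p = 0.0234). These were 5 of 35 members (14.3%), 4 higher and 1 lower, against 11.2% of all genes tested in either direction, 6.73% higher and 4.45% lower. At an unadjusted p under 0.05 there were 18 members, against 27.3% of all genes. In these bulk samples fewer cells of a type and less RNA per cell cannot be told apart.

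The members as a group lay higher in treated than in untreated knockout cells, and by amounts that differed between dates. Their median log2 change was 1.26, against -0.02 for all genes. By date it was 2.98 on date 1, 0.94 on date 2 and 0.29 on date 3, with 33, 30 and 20 of the 35 members above 0. In all, 20 members were higher on each of the 3 dates and 2 were lower on each, against 24.5% and 27% of all genes. The 2 that were lower on each date were Psmb9 and Ifitm1.

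In control cells Rsad2 and Gbp2 rose and Psmb9 fell. Rsad2 rose by 3.07 ± 0.78 (limma adjusted p = 0.0445), Gbp2 by 2.21 ± 0.57 (adjusted p = 0.0477), and Psmb9 fell by 1.33 ± 0.26 (adjusted p = 0.0175). These were 3 of 35 members, against 6.77% of all genes tested, 4.21% higher and 2.56% lower. At an unadjusted p under 0.05 there were 8 members, against 23.3% of all genes. The median log2 change of the members was 0.64, against -0.04 for all genes. It was 2.62 on date 1, -0.41 on date 2 and -0.20 on date 3, with 32, 12 and 12 of the 35 members above 0. On each of the 3 dates 8 members were higher and 3 were lower, against 23.1% and 27.6% of all genes.

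**Figure D1:**
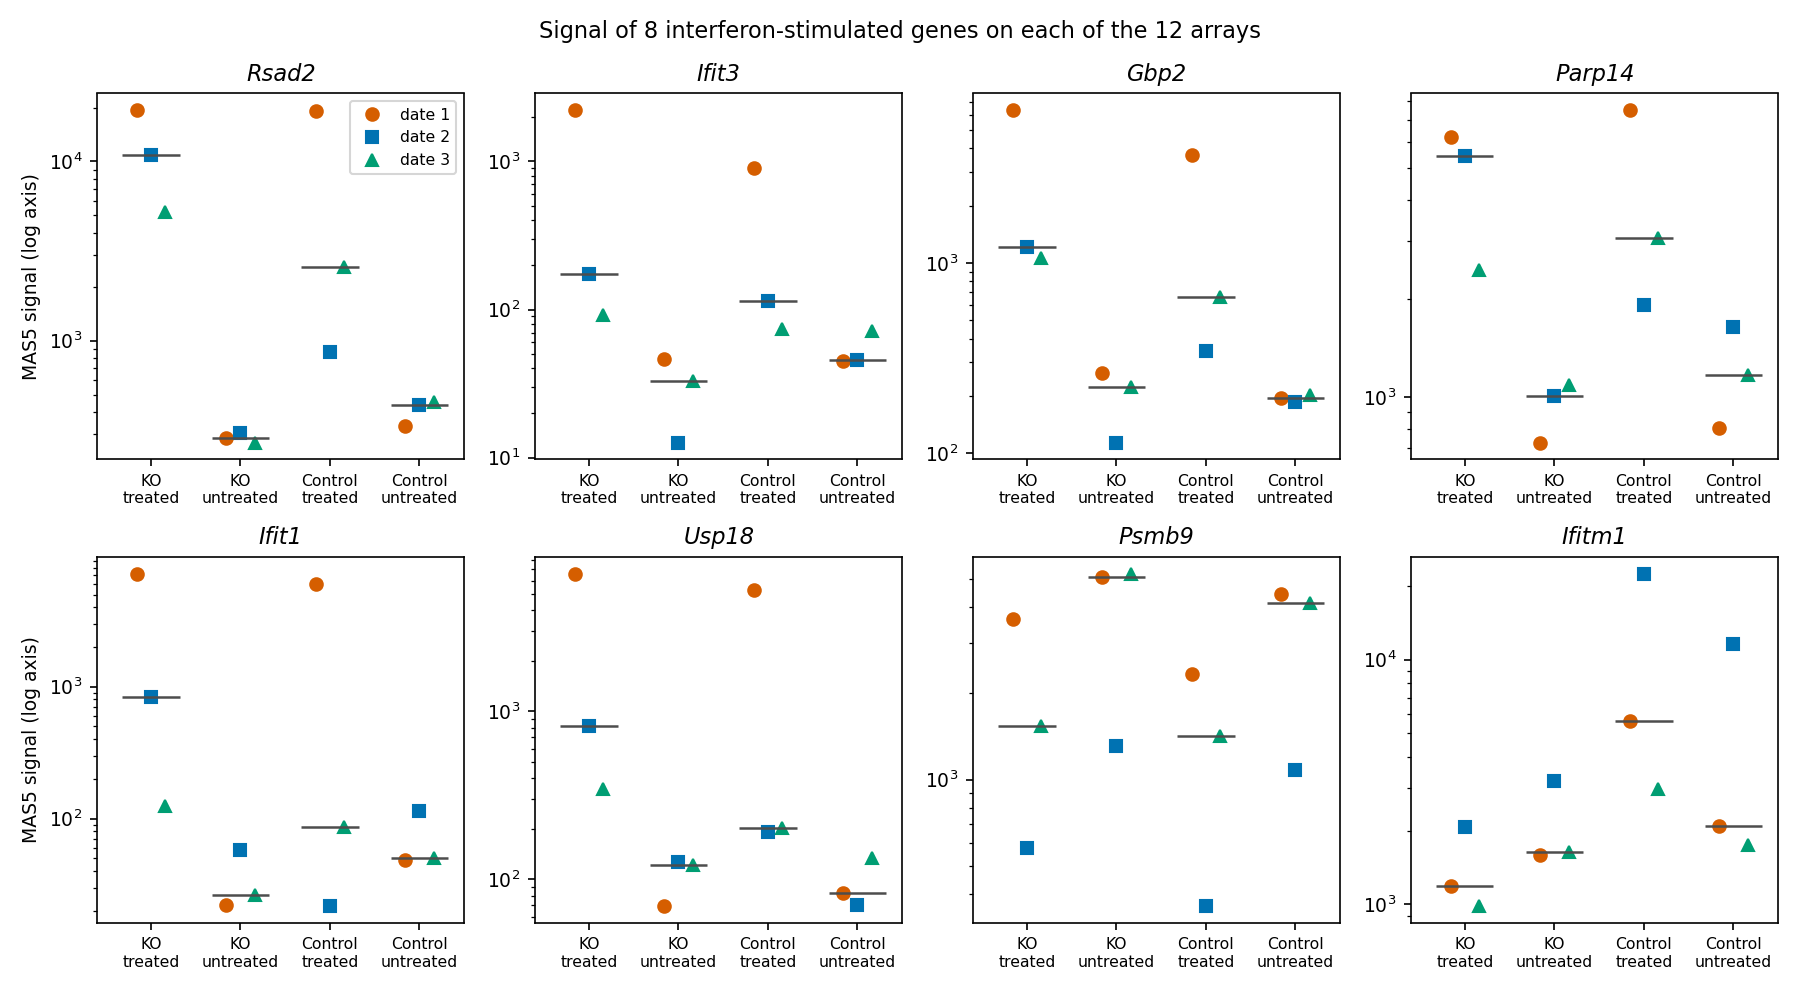
Signals of 8 members on each of the 12 arrays, on log axes, by group (knockout treated, knockout untreated, control treated, control untreated); each point is 1 array, shaped by date, and the bar is the median of the 3 arrays. Rsad2 lay at 5192 to 19346 in treated and 270 to 306 in untreated knockout cells, and Ifitm1 at 983 to 2070 in treated knockout cells and 2958 to 22462 in treated control cells.

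Among the antiviral effectors Rsad2 had the largest change. Its signals were 19346, 10831 and 5192 in treated knockout cells on dates 1, 2 and 3, and 288, 306 and 270 in untreated knockout cells. In control cells they were 19065, 860 and 2590 with treatment and 335, 437 and 456 without. Treated and untreated arrays did not overlap in either genotype, and the 2 treated arrays of date 1 were nearly equal. A second Rsad2 probe set, with 1730 on the treated knockout array of date 2, changed by 5.39 ± 1.07 in knockout cells (adjusted p = 0.0147 over all probe sets). Another had only 42.3 on that array and 14.0 on the untreated one of that date, and changed by 3.75 ± 1.24 (adjusted p = 0.0905). This last probe set passed the filter on low signal only through treated arrays.

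Ifit1 and Ifit3 encode related proteins that bind viral RNA. Ifit1 signals were 7200, 842 and 124 in treated knockout cells on dates 1, 2 and 3, and 22.1, 57.7 and 26.4 in untreated knockout cells. In treated control cells they were 6016, 21.7 and 86.2, against 48.5, 115 and 50.4 in untreated control cells. The treated control array of date 2 was thus the lowest of all 12, and Ifit1 differed by 4.36 ± 1.45 in knockout cells (adjusted p = 0.0839) and 1.79 ± 1.45 in control cells (adjusted p = 0.511). Ifit3 signals were 2223, 173 and 92.4 in treated knockout cells, and 46.5, 12.6 and 32.8 in untreated knockout cells. In control cells they were 904, 114 and 74.0 with treatment and 45.1, 45.3 and 71.8 without. Treated and untreated groups of Ifit3 did not overlap in either genotype, and the change in control cells was 1.71 ± 0.79 (adjusted p = 0.228).

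Parp14 signals were 6228, 5431 and 2438 in treated knockout cells, and 728, 1007 and 1094 in untreated knockout cells. In control cells they were 7507, 1918 and 3069 with treatment and 807, 1642 and 1167 without, a log2 difference of 1.60 ± 0.51 (adjusted p = 0.0929). The treated arrays lay above the untreated ones in both genotypes, by the least on date 2 of the control cells. A second Parp14 probe set rose by 2.62 ± 0.61 in knockout cells (adjusted p = 0.0269 over all probe sets) and reached 2.44 ± 0.61 in control cells, at the threshold (adjusted p = 0.05). That second probe set passed the filter on low signal only through treated arrays, so its rise is no separate support.

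The other effectors did not pass the threshold in either genotype. Mx1, a dynamin-like GTPase gene, had 2803, 613 and 88.9 in treated knockout cells against 44.5, 143 and 68.1 in untreated knockout cells. In control cells Mx1 had 1770, 101 and 65.4 with treatment and 48.5, 165 and 88.1 without. Only the treated arrays of date 1 in either genotype, and that of date 2 in knockout cells, lay clear of the untreated range. Mx2, its neighbour, had 804 and 633 on the treated knockout and treated control arrays of date 1 and 5.73 to 45.6 on the other 10 arrays. Oasl1 differed by 3.20 ± 1.15 in knockout cells (adjusted p = 0.106) and 1.17 ± 1.15 in control cells (adjusted p = 0.596). The oligoadenylate synthetase genes Oas2 and Oas3, whose products activate RNase L, differed by 1.54 ± 0.53 and 2.07 ± 0.71 in knockout cells (adjusted p = 0.0936 and 0.0913). Oas1a differed by 0.68 ± 0.44 and the related Oasl2 by 2.77 ± 0.95 in those cells (adjusted p = 0.361 and 0.0929). Cmpk2, a nucleotide kinase gene next to Rsad2, differed by 1.58 ± 0.78 in knockout and 0.62 ± 0.78 in control cells (adjusted p = 0.227 and 0.688). Ifit2, Isg20, Xaf1, Trim30a, Ifitm3 and Bst2 had changes of -0.11 to 1.26 in knockout cells and -0.90 to 0.96 in control cells. Of the 18 effectors tested, 3 rose and 0 fell in knockout cells and 1 rose and 0 fell in control cells. Of all genes tested, 6.73% rose and 4.45% fell in knockout cells, and 4.21% rose and 2.56% fell in control cells.

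Usp18, which removes ISG15 from proteins and dampens interferon receptor signalling, was the only tested member of the ISG15 system. Its signals were 6596, 813 and 346 in treated knockout cells, and 69.3, 127 and 121 in untreated knockout cells. In control cells they were 5271, 191 and 203 with treatment and 83.1, 70.5 and 134 without. Treated arrays lay above untreated ones in both genotypes, and the log2 difference was 3.44 ± 1.04 in knockout cells (adjusted p = 0.0610) and 2.54 ± 1.04 in control cells (adjusted p = 0.174).

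The interferon regulatory factors had higher signals in treated than in untreated knockout cells on every date, with 0 of 3 past the threshold in either genotype. Of all genes, 11.2% passed it in knockout cells and 6.77% in control cells. Irf7, the factor that amplifies type I interferon transcription, had 2570, 389 and 230 in treated knockout cells and 78.1, 115 and 53.5 in untreated knockout cells. In control cells Irf7 had 2406, 132 and 132 with treatment and 73.9, 155 and 115 without. The treated and untreated Irf7 ranges were apart in knockout cells and overlapped in control cells, with changes of 2.78 ± 0.88 (adjusted p = 0.0722) and 1.58 ± 0.88 (adjusted p = 0.324). Irf9, the DNA-binding part of the ISRE-binding complex, had 2414, 1011 and 648 in treated knockout cells and 658, 403 and 528 in untreated knockout cells. Its signals in control cells were 1419, 344 and 491 with treatment and 559, 452 and 608 without. Irf9 changed by 1.15 ± 0.38 in knockout cells (adjusted p = 0.0851) and 0.21 ± 0.38 in control cells (adjusted p = 0.791). Irf1, which acts downstream of interferon gamma, differed by 0.92 ± 0.30 and 0.39 ± 0.30 (adjusted p = 0.0774 and 0.483).

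Among the interferon-inducible GTPases, which act on pathogen-containing vacuoles, Gbp2 was the 1 of 6 that rose in either genotype. The share of all genes that rose was 6.73% in knockout and 4.21% in control cells. Gbp2 signals were 6365, 1211 and 1056 in treated knockout cells, and 263, 114 and 224 in untreated knockout cells. In control cells they were 3702, 343 and 660 with treatment and 195, 186 and 203 without. Treated arrays lay above untreated ones in both genotypes. A second, cross-hybridizing Gbp2 probe set changed by 2.88 ± 0.60 in knockout cells (adjusted p = 0.0180 over all probe sets) and 2.25 ± 0.60 in control cells (adjusted p = 0.0621). Iigp1 had 1310, 502 and 118 in treated knockout cells and 88.4, 229 and 57.8 in untreated knockout cells. In control cells Iigp1 had 1216, 130 and 122 with treatment and 81.5, 95.9 and 212 without. The treated and untreated groups of Iigp1 overlapped in both genotypes, and its changes were 1.89 ± 0.86 (adjusted p = 0.189) and 1.12 ± 0.86 (adjusted p = 0.482). Irgm1 and Igtp differed by 1.70 ± 0.65 and 1.02 ± 0.58 in knockout cells (adjusted p = 0.126 and 0.289). Gbp3 and Ifi47 differed by 0.07 ± 0.30 and -0.33 ± 0.38 in knockout cells (adjusted p = 0.921 and 0.637).

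The sensors of viral nucleic acids had 0 of 4 past the threshold in either genotype, against 11.2% of all genes in knockout and 6.77% in control cells. Ddx58, which encodes the RNA sensor RIG-I, had 1530, 864 and 538 in treated knockout cells and 311, 192 and 320 in untreated knockout cells. In control cells Ddx58 had 2572, 277 and 550 with treatment and 436, 372 and 617 without. Treated knockout arrays lay above untreated ones, while control arrays overlapped, and the changes were 1.69 ± 0.54 (adjusted p = 0.0736) and 0.65 ± 0.54 (adjusted p = 0.522). A second, dimmer Ddx58 probe set had the reverse pattern. Its control arrays had 238, 76.1 and 37.8 with treatment and 6.65, 4.82 and 19.6 without, while its knockout arrays overlapped. It changed by 1.77 ± 0.65 in knockout and 2.21 ± 0.65 in control cells (adjusted p = 0.125 and 0.0843 over all probe sets). Another changed by 1.24 ± 0.60 and 0.56 ± 0.60. Both of these dimmer Ddx58 probe sets passed the filter on low signal only through treated arrays, so their rise is no separate support. Zbp1, a sensor of Z-form nucleic acids, had 246, 211 and 5.76 in treated knockout cells and 12.1, 65.8 and 10.9 in untreated knockout cells. Its signals were 132, 23.1 and 8.84 in treated control cells and 10.5, 49.5 and 53.1 in untreated control cells. Groups of Zbp1 overlapped in both genotypes, and its probe set passed the filter only through treated arrays. Ifih1, the gene of the RNA sensor MDA5, and Dhx58, a regulator of both RNA sensors, differed by 1.11 ± 0.73 and 0.54 ± 0.76 in knockout cells (adjusted p = 0.368 and 0.707).

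Of the 3 antigen-processing members, Psmb9 went the other way in both genotypes. Psmb9 signals were 3613, 576 and 1538 in treated knockout cells, and 5074, 1306 and 5210 in untreated knockout cells. In control cells they were 2335, 363 and 1416 with treatment and 4411, 1081 and 4128 without. The groups overlapped across dates, since both genotypes were dimmest on date 2, but each treated array was below its untreated partner of the same date. Psmb8, another immunoproteasome subunit gene, had 5201, 1510 and 1720 in treated knockout cells and 4882, 3516 and 4122 in untreated knockout cells. Its signals in control cells were 3021, 1362 and 1845 with treatment and 4624, 1986 and 3867 without. Psmb8 was lower in 2 of 3 pairs of knockout arrays and 3 of 3 pairs of control arrays, with changes of -0.79 ± 0.29 (adjusted p = 0.113) and -0.74 ± 0.29 (adjusted p = 0.163). Tap1, the peptide transporter gene between them in the genome, differed by 0.20 ± 0.28 and -0.29 ± 0.28 (adjusted p = 0.710 and 0.595).

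The 8 called values leaned on single arrays to different degrees. Rsad2 and Gbp2 in knockout cells kept their calls in each of the 12 fits without 1 array (adjusted p of at most 0.0236 and 0.0367) and in the fit without date 2 (0.00944 and 0.0263). Ifit3 lost its call without knockout treated replicate 1 or 2 (0.105 and 0.0805), without knockout untreated replicate 1, 2 or 3 (0.130, 0.102 and 0.0593) and without date 2 (0.107). Its adjusted p was also 0.0592 with no filter on low signal and 0.0676 from the 2 groups compared alone. Parp14 lost its call without knockout treated replicate 1 or 2 (0.0778 and 0.0871) and without knockout untreated replicate 1, 2 or 3 (0.0995, 0.0700 and 0.0531), with 0.0482 without date 2. Psmb9 in knockout cells lost it without knockout treated replicate 2 or 3 (0.0638 and 0.102), without knockout untreated replicate 2 or 3 (0.0808 and 0.113) and without date 2 (0.0688), and from the 2 groups compared alone (0.0849).

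In control cells Psmb9 lost its call without control treated replicate 3 (0.0765), without control untreated replicate 2 or 3 (0.0660 and 0.0964), without date 2 (0.0604) and from the 2 groups compared alone (0.0594). Rsad2 in control cells kept its call in 2 of 12 such fits, which left out control treated replicate 2 (0.00804) or knockout treated replicate 2 (0.0473). Without each other array its adjusted p lay between 0.0522, without knockout untreated replicate 2, and 0.168, without control untreated replicate 1. Without control treated replicate 1 its change was 1.95, and without control treated replicate 2 it was 4.12. Gbp2 in control cells was called in 1 of the 12, without control treated replicate 2 (0.0384), and lay between 0.0522, without knockout treated replicate 1, and 0.168, without control untreated replicate 1, in the others. Rsad2 in control cells also lost its call with the mean over passing probe sets (0.0841). With a constant of 1, no filter, quantile normalization or the 2 groups compared alone, the adjusted p was 0.0521 to 0.129 for Rsad2 and 0.0586 to 0.128 for Gbp2 in control cells. Without date 2 Rsad2 and Gbp2 in control cells changed by 4.12 and 2.90 (adjusted p = 0.0205 and 0.0433). Without the array date as a block Rsad2 and Parp14 in knockout cells were still called (0.0106 and 0.0480). The other 6 values were not. Their adjusted p was then 0.0599 for Gbp2, 0.188 for Ifit3 and 0.669 for Psmb9 in knockout cells, and 0.145 for Rsad2, 0.307 for Gbp2 and 0.671 for Psmb9 in control cells.

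**Figure D2:**
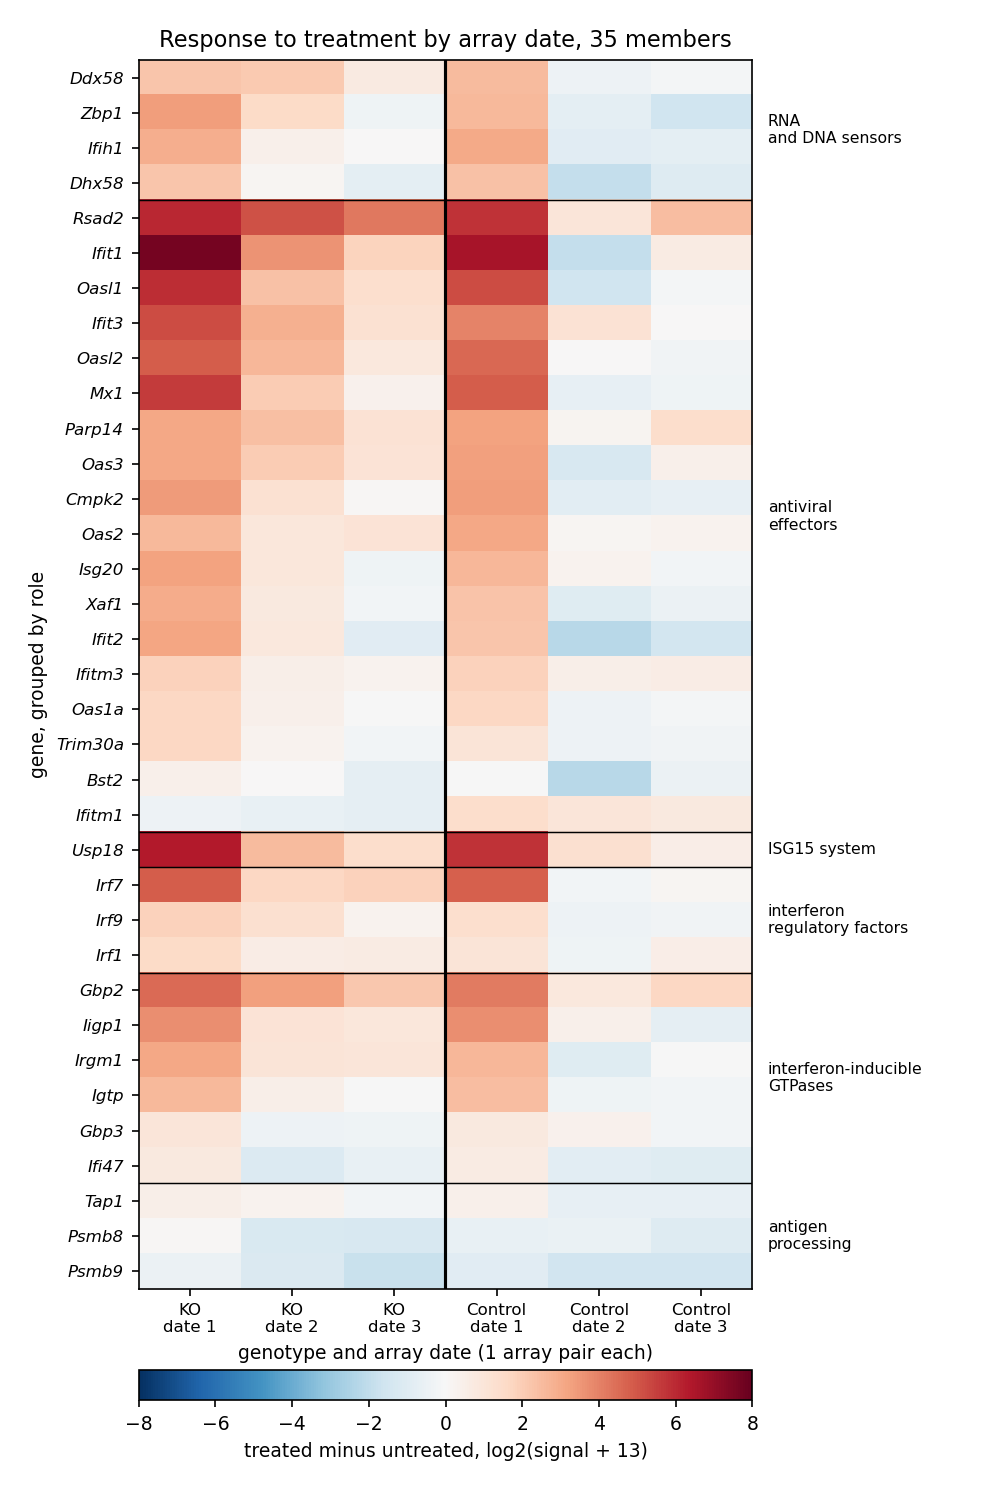
Treated minus untreated on the log2(signal + 13) scale for each of the 35 tested members (rows, grouped by role), by genotype and date (columns, 1 array pair each); red is higher with treatment and blue lower. Columns of date 1 are red for most members in both genotypes, with 33 and 32 of 35 above 0, while control cells on dates 2 and 3 have 12 and 12 above 0.

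The response of most members was larger on date 1 than on the other dates, in both genotypes. Ifit1 was higher with treatment by 7.68 on date 1, 3.60 on date 2 and 1.80 on date 3 in knockout cells. In control cells the Ifit1 differences were 6.61, -1.88 and 0.65. Mx1 differed by 5.62, 2.01 and 0.33 in knockout cells and by 4.86, -0.64 and -0.37 in control cells. Usp18 differed by 6.33, 2.56 and 1.42 in knockout cells and by 5.78, 1.29 and 0.56 in control cells. Rsad2, Gbp2, Usp18, Ifit3, Parp14, Oas2 and Ifitm3 stayed above 0 on every date and in both genotypes. The probe sets that stand for Rsad2 and Gbp2 were at 0.95 or more and 0.84 or more. Another Rsad2 probe set had 0.285 and 0.472 on dates 2 and 3 in control cells. The difference was fitted as the response on date 1 minus the mean response on dates 2 and 3 over both genotypes. It was chosen after the values by date had been seen, so its p-values and counts are no separate support for the pattern. The median of this difference was 2.64 for the members and 0.04 for all genes. The fit has 4 residual degrees of freedom, and 0 of 35 members and 0% of all genes had an adjusted p under 0.05. An unadjusted p under 0.05 was found for 31 of 35 members, against 6.99% of all genes. The 4 without it were Ifitm1, Bst2, Tap1 and Psmb8. The smallest adjusted p, 0.0574, was shared by Usp18 (4.60 ± 0.54), Mx1 (4.90 ± 0.58), Irf7 (3.94 ± 0.47) and Ifih1 (3.29 ± 0.37). At an adjusted p under 0.05 the count was 17 of 35 members without knockout treated replicate 2, against 0.398% of all genes. Without control treated replicate 2 it was 11 of 35, against 0.178% of all genes. In every other fit that left out 1 array it was 0 of 35, against 0% of all genes.

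**Figure D3:**
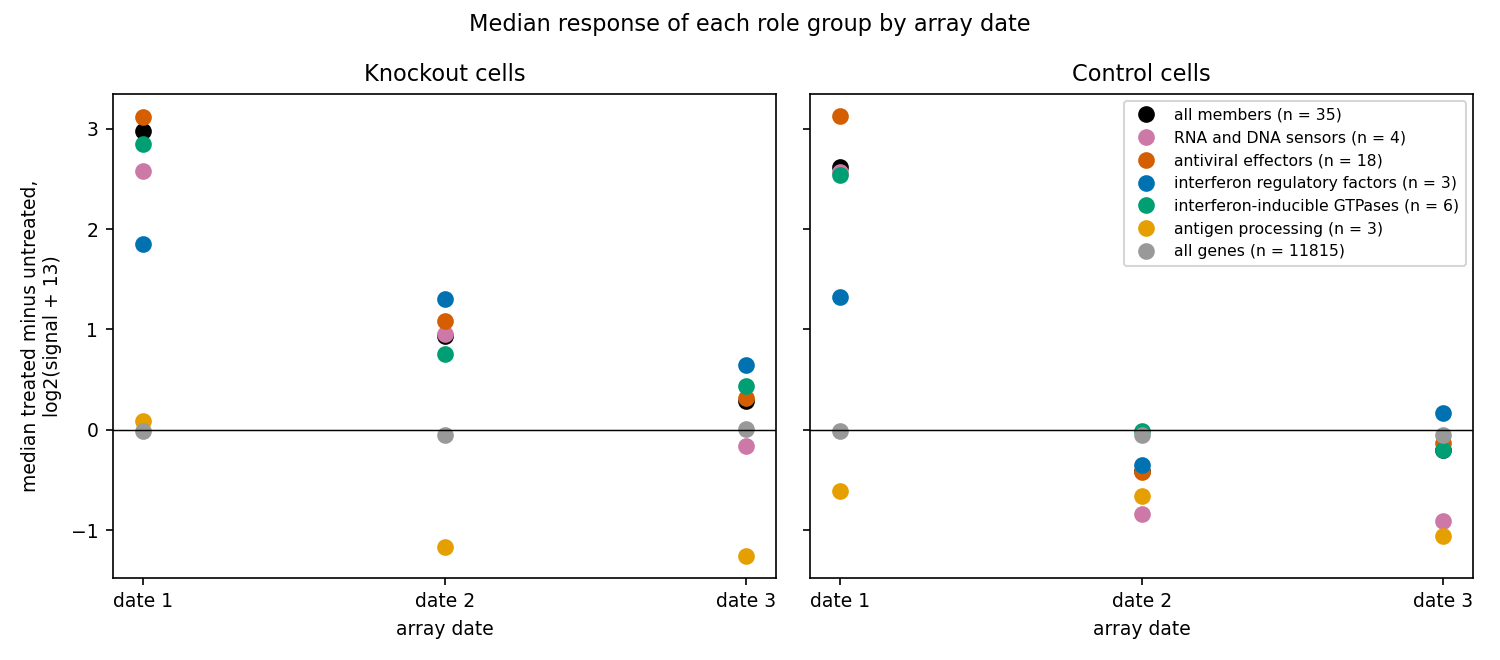
Median treated minus untreated difference on the log2(signal + 13) scale of each role group (coloured points), all 35 members (black) and all 11815 genes (grey) by array date, in knockout cells (left) and control cells (right). All members stood at 2.98, 0.94 and 0.29 in knockout cells and at 2.62, -0.41 and -0.20 in control cells, while all genes stayed near 0.

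The role groups differed in this pattern. The 18 effectors had medians of 3.12, 1.09 and 0.31 on dates 1, 2 and 3 in knockout cells, and of 3.13, -0.42 and -0.13 in control cells. The 6 GTPases had 2.85, 0.75 and 0.43 in knockout cells and 2.54, -0.01 and -0.20 in control cells. For the 4 sensors the medians were 2.58, 0.96 and -0.16 in knockout cells and 2.57, -0.84 and -0.91 in control cells. The 3 regulatory factors had 1.85, 1.30 and 0.65 in knockout cells and 1.32, -0.35 and 0.17 in control cells. The 3 antigen-processing genes stood apart, with 0.09, -1.16 and -1.25 in knockout cells and -0.61, -0.66 and -1.06 in control cells. All genes had medians between -0.06 and 0.01 on each date in both genotypes.

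A fit that lets the treatment effect differ between dates, also added after the values were seen, gave smaller standard errors for the members named next. In it the spread of a response between dates is no longer part of the error. Its p-values for treatment therefore apply to these dates and do not measure how far a response repeats on other dates. In knockout cells this fit called 22 of 35 members, 21 higher and 1 lower, against 10.4% of all genes, 6.53% higher and 3.85% lower. Beside the 4 members that rose above, these included Usp18 (3.44 ± 0.36, adjusted p = 0.00207), Irf7 (2.78 ± 0.32, adjusted p = 0.00292), Mx1 (2.65 ± 0.38, adjusted p = 0.00737), Oasl1 (3.20 ± 0.48, adjusted p = 0.00832) and Ifit1 (4.36 ± 0.75, adjusted p = 0.0134). In control cells it called 7 of 35, against 6.99% of all genes, 4.38% higher and 2.61% lower. The 6 higher were Rsad2, Gbp2, Usp18, Ifit3, Irf7 and Parp14, and the 1 lower was Psmb9.

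Between the genotypes, most members had higher signals in treated knockout than in treated control cells, and 0 passed the threshold after adjustment. Of the 35 members 0 were called, against 0.11% of all genes in either direction, all of them lower (0% higher). At an unadjusted p under 0.05 there were 4 members, against 9.72% of all genes. These were Ifitm1, Bst2, Irf1 and Irf9. The median of the members was 0.63, against 0.01 for all genes, and it was 0.26, 1.49 and 0.28 on dates 1, 2 and 3. On each of the 3 dates 20 members were higher and 3 were lower in knockout cells, against 16.5% and 15.9% of all genes. Rsad2 differed by 1.55 ± 0.78 (limma adjusted p = 0.522), with 0.02, 3.64 and 0.999 by date. Ifit1 differed by 1.78 ± 1.45 (adjusted p = 0.645), with 0.26, 4.62 and 0.47. For both genes the difference was thus largest on date 2, where the treated control array had the highest 3′ to 5′ ratio.

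**Figure D4:**
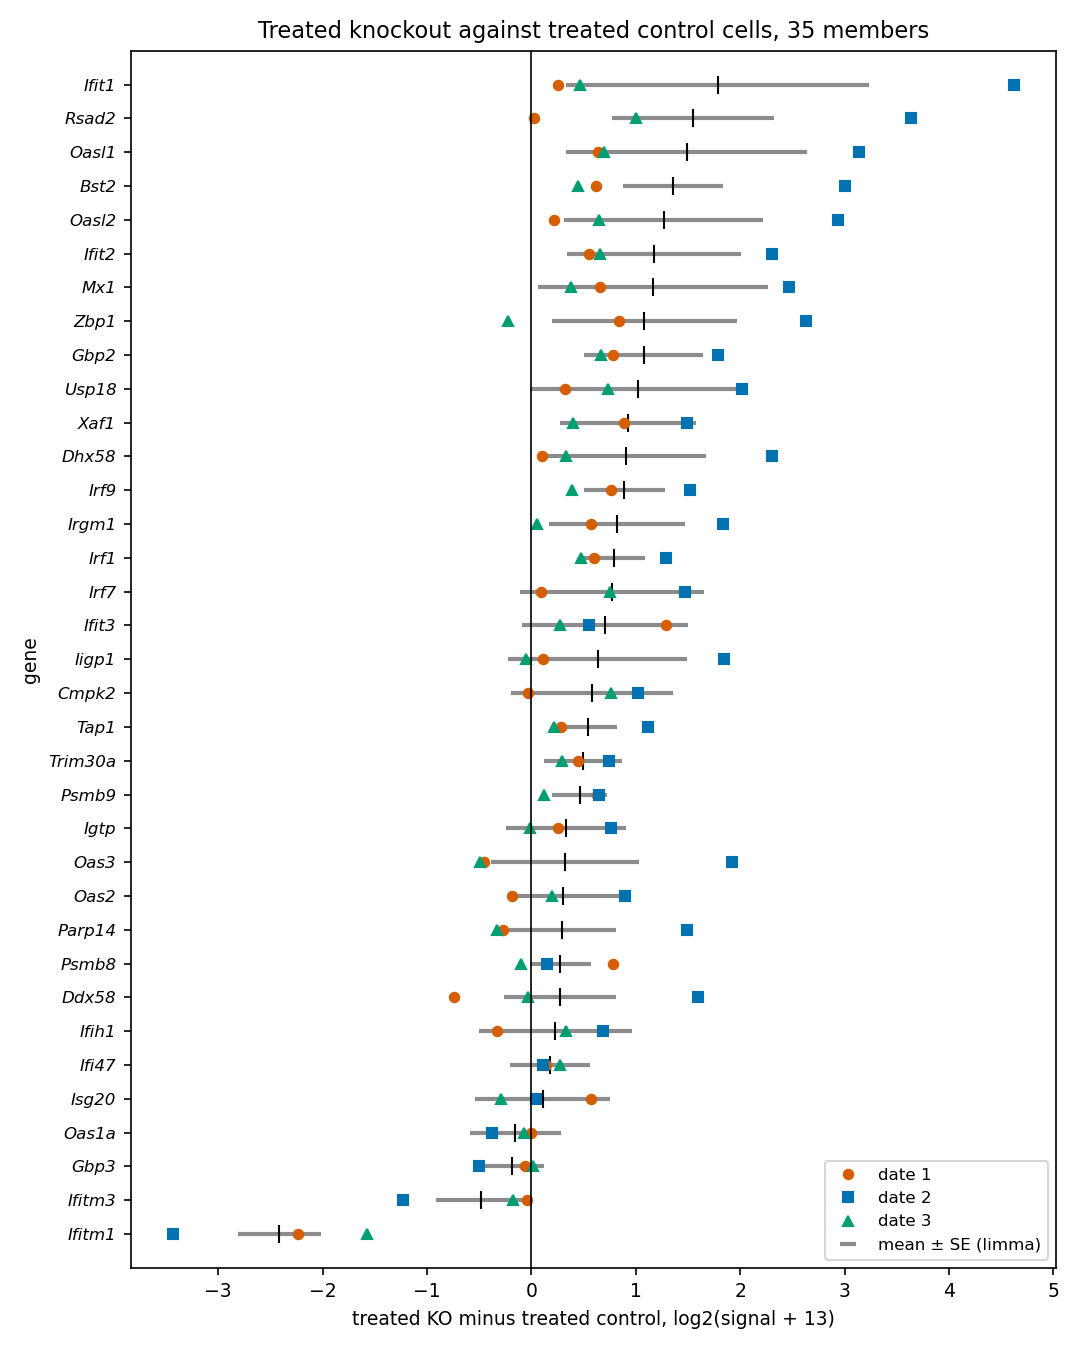
Treated knockout minus treated control cells on the log2(signal + 13) scale for the 35 tested members, sorted by the mean; points are the 3 dates, the tick is the mean and the bar its standard error from limma. The median of the members is 0.63, and 1.49 on date 2, while Ifitm1 lies left of 0 on each date, at -2.23, -3.43 and -1.58.

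Bst2, which encodes tetherin, a protein that holds budding virus at the cell surface, had 485, 172 and 325 in treated knockout cells against 311, 9.98 and 234 in treated control cells. It differed by 1.36 ± 0.48 (adjusted p = 0.506), and the treated control array of date 2 was its lowest of the 12. Irf1 and Irf9 differed by 0.79 ± 0.30 and 0.89 ± 0.38 (adjusted p = 0.506 and 0.514), and were higher in knockout cells on each date. With a fit of date by treatment terms 0 of 35 members were called, against 0.0508% of all genes, all lower. At an unadjusted p under 0.05 there were then 15 members, against 9.06% of all genes. Ifitm1 was lower in knockout cells, and the others were higher, among them Bst2, Irf1, Irf7, Irf9, Gbp2, Rsad2, Ifit1, Usp18 and Mx1.

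Ifitm1, an interferon-induced membrane protein gene singled out here after its values were seen, had the lowest value of the 35 members in this comparison. Its signals were 1186, 2070 and 983 in treated knockout cells, and 5611, 22462 and 2958 in treated control cells. In untreated cells they were 1587, 3191 and 1637 for knockout and 2087, 11634 and 1751 for control. The treated groups did not overlap, and the untreated knockout array was the lower one on each date. Treated knockout cells differed from treated control cells by -2.41 ± 0.40 (adjusted p = 0.0818, unadjusted p = 1.25e-04). With a constant of 50 in place of 13 the difference was -2.38 (adjusted p = 0.0319). The adjusted p was 0.121 with a constant of 1, 0.174 with date by treatment terms, 0.591 from the 2 groups compared alone and 0.9993 without the date block. Over the other alternatives, each array left out included, it was 0.0595 to 0.338. Its family member Ifitm3 had 7689, 4370 and 3516 in treated knockout cells and 7896, 10299 and 3967 in treated control cells, a difference of -0.48 ± 0.43 (adjusted p = 0.677).

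Without treatment the genotypes were closer. Of the 35 members 0 were called, against 0.0169% of all genes, all lower, and 0 had an unadjusted p under 0.05, against 2.22% of all genes. The median difference of the members was -0.20, against -0.01 for all genes. On each date 5 members were higher and 9 lower in untreated knockout cells, against 13.3% and 13.5% of all genes. Untreated Rsad2 differed by -0.48 ± 0.78 and Ifit1 by -0.78 ± 1.45 (adjusted p = 1 for both).

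The response in knockout cells minus that in control cells was positive for most members and called for none. The count was 0 of 35, against 0% of all genes, and at an unadjusted p under 0.05 it was 1 member, Ifitm1, against 2.46% of all genes. The median of the members was 0.80, against 0.03 for all genes, with 0.27, 1.72 and 0.56 on dates 1, 2 and 3. The difference was positive on each date for 20 members and negative on each for 1, against 15.3% and 12.5% of all genes. For Rsad2 it was 2.03 with a 95% confidence interval of -0.41 to 4.48, and for Gbp2 it was 1.11 with an interval of -0.69 to 2.92. These intervals hold 0 as well as differences of more than 2 on the log2 scale. With date by treatment terms the intervals were narrower and lay above 0, at 0.09 to 3.97 for Rsad2 and 0.10 to 2.13 for Gbp2. In that fit 0 of 35 members and 0% of all genes were called (adjusted p = 0.9998 for both genes), while 11 members had an unadjusted p under 0.05, against 2.98% of all genes. These were Ifit1, Ifit2, Ifit3, Rsad2, Oasl1, Mx1, Xaf1, Irf7, Irf9 and Gbp2, all with a larger response in knockout cells, and Ifitm1. The comparisons of genotypes with treatment, without treatment and of responses share arrays.

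The upstream part of the pathway was taken from further lists of genes. Of 19 ligand genes listed 2 were tested, and 0 passed the threshold in either genotype. The share of all genes past it was 11.2% in knockout and 6.77% in control cells. Ifnb1, the interferon beta gene, had 109, 54.6 and 38.5 in treated knockout cells and 5.12, 69.2 and 44.9 in untreated knockout cells. In control cells Ifnb1 had 45.2, 100 and 50.3 with treatment and 13, 79.6 and 24.8 without. These dim signals overlapped, with changes of 0.77 ± 0.51 (adjusted p = 0.377) and 0.73 ± 0.51 (adjusted p = 0.438). Ifng did not pass the filter, with a highest signal of 35.4.

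Beside the counts in this paragraph, 6.73% of all genes rose and 4.45% fell in knockout cells, and 4.21% rose and 2.56% fell in control cells. Of 10 receptor and kinase genes tested, 3 rose and 1 fell in knockout cells, and 1 rose and 1 fell in control cells. Ifnar1, a chain of the type I interferon receptor, rose by 1.29 ± 0.33 (adjusted p = 0.0334) in knockout cells. The kinase gene Jak2 rose by 1.44 ± 0.28 in knockout cells (adjusted p = 0.0110) and by 1.78 ± 0.28 in control cells (adjusted p = 0.00643), and Jak1 by 0.84 ± 0.24 in knockout cells. The interferon gamma receptor gene Ifngr1 fell by 0.97 ± 0.23 in knockout cells and by 1.18 ± 0.23 in control cells (adjusted p = 0.0274 and 0.0182). Of 8 transcription factor genes, 3 rose in knockout cells and 2 rose and 1 fell in control cells. Irf4 rose by 2.12 ± 0.45 and 2.68 ± 0.45 in knockout and control cells, and Irf5 by 2.06 ± 0.42 and 1.63 ± 0.42. Irf8, a factor of monocyte and dendritic cell development, fell by 1.39 ± 0.31 in control cells (adjusted p = 0.0292). Stat2 rose by 1.25 ± 0.35 in knockout cells (adjusted p = 0.0470) and differed by 0.93 ± 0.35 in control cells (adjusted p = 0.143). Of 14 sensor and adaptor genes, 2 rose in each genotype. The endosomal RNA receptor gene Tlr7 rose by 2.44 ± 0.52 and 2.24 ± 0.52 in knockout and control cells, the kinase gene Ikbke by 1.84 ± 0.38 in knockout cells and Tlr4 by 2.20 ± 0.44 in control cells.

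Among 51 other interferon-induced genes tested, 8 rose and 0 fell in knockout cells and 5 rose and 0 fell in control cells. Over all genes 6.73% rose and 4.45% fell in knockout cells, and 4.21% rose and 2.56% fell in control cells. The chemokine gene Cxcl10 had 13190, 3508 and 3716 in treated knockout cells and 54.8, 105 and 105 in untreated knockout cells. In control cells Cxcl10 had 12548, 728 and 3642 with treatment and 34.6, 210 and 168 without. It was higher on every date, by 5.83 ± 0.95 (adjusted p = 0.00542) and 4.70 ± 0.95 (adjusted p = 0.0185). Slfn2 rose by 3.62 ± 0.75 and Slfn5 by 2.49 ± 0.68 in knockout cells. Casp4, the inflammatory caspase gene, rose by 2.52 ± 0.40 and 1.96 ± 0.40 and Cd274, which encodes PD-L1, by 1.77 ± 0.35 and 2.39 ± 0.35, in knockout and control cells. Ifi204 rose by 2.14 ± 0.54 in knockout cells. The median change of the list was 0.62 in knockout cells and 0.51 in control cells.

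Markers of other cell types moved in part with treatment. For comparison, 6.73% of all genes rose and 4.45% fell in knockout cells, and 4.21% rose and 2.56% fell in control cells. The summed signal of the 11 tested granulocyte-monocyte progenitor markers was 75840 to 125300 in treated and 83260 to 187200 in untreated knockout cells, and 75830 to 223000 in treated and 88450 to 182900 in untreated control cells. Of these 11 genes 0 passed the threshold in either genotype. Paired by date, their sum was lower with treatment on each date in knockout cells. In control cells it was lower on dates 1 and 3 and higher on date 2. Of 5 tested plasmacytoid dendritic cell markers, 3 rose and 1 fell in knockout cells and 1 rose in control cells. Cox6a2 rose by 2.55 ± 0.37 and 2.58 ± 0.37 in knockout and control cells, and Spib by 1.96 ± 0.41 in knockout cells. Averaged over both genotypes, Klk1 was lower with treatment, at -0.641 on date 1 and -0.828 on dates 2 and 3. On the same dates Tcf4 had 1.005 and 0.893, and Pacsin1 had 0.952 and -0.054. The defining markers Siglech and Ccr9 did not pass the filter, at no more than 74.0 and 66.9. The summed signal of the 5 was 2291 to 4183 in treated and 1779 to 2096 in untreated knockout cells, and 2580 to 5178 in treated and 1923 to 2710 in untreated control cells. It was higher with treatment on each date in both genotypes. Of 5 macrophage markers 1 rose in knockout cells, Vcam1 by 2.68 ± 0.69 (adjusted p = 0.0364), and C1qa, C1qb, C1qc, Marco and Mertk did not pass the filter. The summed signal of the 5 tested macrophage markers was 16160 to 32020 in treated and 8854 to 23630 in untreated knockout cells. In control cells it was 14880 to 41760 with treatment and 8043 to 27520 without. Within each date that sum was higher with treatment in both genotypes. In the mast cell and basophil list, with 5 genes tested, Cpa3 fell by 1.23 ± 0.34 in knockout cells. The summed signal of that list was 3638 to 11150 in treated and 7381 to 12340 in untreated knockout cells, and 5519 to 12210 in treated and 10470 to 12190 in untreated control cells. It was lower with treatment on each date in knockout cells. In control cells it was higher on date 1 and lower on dates 2 and 3. The T and NK cell list had 3 genes tested, Nkg7, Thy1 and Cd8a, and Thy1 rose by 1.47 ± 0.33 in control cells. The summed signal of the 3 was lower with treatment, at 1317 to 5803 in treated and 8173 to 9801 in untreated knockout cells, and at 1976 to 4939 in treated and 7923 to 8899 in untreated control cells. The 3 genes differed, and 0 fell past the threshold in either genotype. Averaged over both genotypes, Nkg7 was at -0.67 on date 1 and -1.83 on dates 2 and 3. Cd8a was at -0.08 and -0.97 on these dates, and Thy1 at 0.84 and 0.40. Cd3e, Cd3g, Cd3d and Cd4 did not pass the filter, with highest signals of 136, 52.0, 16.5 and 19.7. The B cell, erythroid and stroma lists had 0 members past the threshold in either genotype, with summed signals of 324 to 1150, 162 to 430 and 181 to 579 on the 12 arrays. The B cell sum was lower with treatment on each date in both genotypes. The part of these cell types in the members' values was not tested.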

How the data were processed

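RNA was measured on 12 arrays, 3 for each of 4 groups. The deposited values are intensity signals made by the authors with MAS5, per the submitters' processing notes, on a linear scale. Each array has a mean of 500.003 to 500.004 after trimming 2% at each end. The number of arrays limits the precision. Of 45101 probe sets, 34945 have 1 gene symbol in the platform annotation, 932 several and 9160 none, and 64 are controls. Gene numbers matched RefSeq for 34741.

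Signals were turned into log2(signal + 13), 13 being the 20th percentile of all values. A probe set was kept if 3 or more of the 12 arrays exceeded 70.5, the median signal of the whole table. The probe set with the highest mean log2 value stood for a gene, and cross-hybridizing sets stood for one only where it had no other. limma 3.58.1 in R 4.3.3 was fitted to all 4 groups with the array date as a block (6 residual and 3.96 prior degrees of freedom). The 5 comparisons were each adjusted by Benjamini-Hochberg over 11815 genes, with a threshold of 0.05. Arrays of the same date deviated together from their group means (18 pairs, r of 0.357 to 0.753), against -0.661 to 0.399 for 36 pairs of different dates, so date pairs the arrays. This fit was tested on simulated data with changes in treated knockout cells and date effects shared by all groups. The fit with date by treatment terms was not tested in that way.

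The members and gene lists were chosen with earlier results of these data known. Members past the threshold in any comparison, and the 2 with the largest changes in each role, are given with every array. Other members are given as changes, and Mx1, Oasl1, Bst2, Irf1, Ifitm1 and Ifitm3 were picked out with their values in view. From the other lists up to 6 genes past the threshold are named, with Stat2, Ifnb1, Stat5a and Stat5b. Every tested plasmacytoid dendritic cell, T cell and NK cell marker is also named. Alternatives were no block, constants of 1 and 50, no filter, quantile normalization, the mean over probe sets, only the groups compared, each probe set by itself, and leaving out date 2 or each array. The fit with date by treatment terms and the comparison of date 1 with the other dates were added after seeing the data. Promoters were searched with Python 3.11.15 and figures drawn with matplotlib 3.10.9.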

Additional observations from a re-analysis of the deposited data

Results flagged for a closer look

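Ifitm1 stood out because its response ran in opposite directions in the genotypes on each of the 3 dates. It was lower with treatment in knockout cells, by 0.42, 0.62 and 0.73 on the log2 scale in size, and higher in control cells, by 1.42, 0.95 and 0.75. The fitted difference of responses was -1.63 ± 0.56 (limma adjusted p = 0.9999).

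Rsad2, Ifit1, Oasl1 and Mx1 stood out because knockout minus control was above 0 on all 3 dates with treatment and below 0 on all 3 dates without it. The fitted difference of responses was 2.03 for Rsad2, 2.57 for Ifit1, 2.02 for Oasl1 and 1.37 for Mx1, each with a limma adjusted p of 0.9999. For Rsad2 this pattern was seen on the probe set that stands for the gene, where the treated difference on date 1 was 0.02, and not on its other 2 probe sets. One of these had -0.48 on date 2 with treatment, and the other had -0.01 on date 1 with treatment and 0.06 on date 2 without it. Single arrays far from their group were not looked for, since groups hold 3 arrays.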

How the results depend on the processing

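Of 4235 recomputed values of single members, 4086 stayed on the same side of the threshold, 60 lost a call and 89 gained one. Called values changed sign in 0 cases. Of those uncalled in both fits, 174 changed sign. Among members, 5 were called for treatment in knockout cells. Without the array date as a replicate block there were 2, with date by treatment terms 22, without the filter 4, from the 2 groups alone 4, and without 1 array 2 to 10. Treatment in control cells called 3 members. There were 0 without the replicate block, 1 with a constant of 1, 1 without the filter, 1 with quantile normalization, 0 from the 2 groups alone, 7 with date by treatment terms and 0 to 4 without 1 array. Over all genes the replicate block moved the counts too, which were 293 in knockout and 165 in control cells without it, against 1321 and 800 with it. They were 673 and 214 from the 2 groups alone, 797 and 443 without the filter, and 470 to 1754 and 237 to 1038 without 1 array. With date by treatment terms they were 1227 and 826. In control cells they were 645 with a constant of 1 and 852 with quantile normalization. Treated knockout against treated control cells called 0 members and 1, Ifitm1, with a constant of 50. Over all genes that comparison called 13, and 18 with a constant of 50. The larger response on date 1 called 0 members, 13 with a constant of 50 (0.262% of all genes), 8 with the mean over probe sets (0.152%) and 0 to 17 without 1 array (0% to 0.398%). The cause was not tested. Members called were 0 under every alternative run for untreated cells and for the difference of responses, where the 2 groups alone cannot be fitted. Signals of Zbp1, Ifnb1 and Mx2 near the constant have little precision, and 3 arrays a group leave wide intervals.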
